A study of Triticum aestivum with 12 samples.

Results

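The salt response common to both organs was described here as the mean of the root and the shoot response to 200 mM NaCl in the wheat cultivar Najran. For each gene, the difference between salt-treated and control roots and the difference between salt-treated and control shoots were averaged on the log2 scale, and genes that moved the same way in each organ were then described. Of 83486 genes in the normalized count table, the 38669 genes (46.3%) that reached a normalized count of 10 in 3 or more root libraries and in 3 or more shoot libraries were tested. The minimum was met by 44737 genes in roots and by 44647 genes in shoots. The 12 RNA-seq libraries comprised 3 of salt-treated roots, 3 of control roots, 3 of salt-treated shoots and 3 of control shoots. Salt-treated plants received water with 200 mM NaCl and control plants tap water (0 mM NaCl) for 4 weeks, and all plants were of the single cultivar Najran, grown in pots of soil compost and harvested at midday. Roots and shoots were harvested separately, and each replicate pooled a pair of plants. The p-values thus rest on the spread between 3 pools of plants per group from 1 experiment with 1 cultivar. The paper states that both organs came from the same plants, whereas the main fit treated the 12 libraries as independent. No label says which root and shoot libraries share plants.

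High NaCl stresses a plant in both organs through a lower water potential and through the entry of sodium and chloride. Known parts of the plant response to salt are the synthesis of compatible solutes such as proline, shifts in sugar and starch metabolism, chaperones that keep proteins folded, ion transport, and hormone signalling through abscisic acid, jasmonate, auxin and cytokinin. Roots meet the salt directly, whereas shoots receive it through the xylem, so the comparison asks which genes move the same way in organs that meet the salt differently.

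Normalized counts summed to 13890189 to 15863307 per root library and 18565098 to 25371113 per shoot library, and the 100 highest genes took 7.58% to 10.6% of the total in roots and 18.2% to 30.1% in shoots. The labelled organs were checked with 122 genes of light-harvesting, photosystem and Rubisco small subunit proteins, whose summed count was 599 to 2507 in roots but 865107 to 1699554 in shoots. The 335 class III peroxidases summed to 83203 to 146377 in roots and 33196 to 55500 in shoots, while the 45 CASP-like genes did not separate the organs (4716 to 12091 in roots and 7480 to 11381 in shoots). Bread wheat carries A, B and D subgenomes, yet genes of the D subgenome took only 2.53% to 9.16% of the counts, and 15.9% of them passed the minimum against 58.6% of A and 57.5% of B genes. The common response described here is therefore almost wholly that of A and B genes, and the reason was not tested. The values are estimated counts that can be split among near-identical gene copies, and the libraries were not stranded, so members of 1 family and overlapping antisense genes are not fully separate measurements.

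A gene was called for the common response at an adjusted p under 0.01 and a mean log2 fold change of at least 1 in either direction, by limma on log2(normalized count + 1) with Benjamini-Hochberg adjustment over all 38669 genes. Salt changed 3271 genes (8.46%) in this way, of which 1119 (2.89%) were higher and 2152 (5.57%) were lower. With root and shoot libraries of the same replicate number paired, 2753 genes were called. The p-values of the mean may thus be too small if such libraries share plants. A mean over organs can be large when only 1 organ moves, so the 3271 genes called in the main fit were split. In 1832 of them (4.74% of all tested genes and 56.0% of those called) the log2 fold change had the same sign and a size of at least 1 in each organ, and these are referred to as same-way genes. Another 1298 had the same sign with 1 organ below that size, in 838 of which the shoot and in 460 the root was the smaller, and 141 had opposite signs. Same-way genes fell more often than they rose: 595 (1.54%) were higher and 1237 (3.2%) were lower under salt in both organs. This balance depended on the scaling of the libraries: when each library was scaled to the mean total of its organ, the median response of all tested genes moved to 0.18 against 0.01 as deposited, and 889 genes were then higher and 830 lower among 1719 same-way genes. Scaling by the median ratio of counts within each organ changed the libraries little (factors of 0.99 to 1.02). It gave 609 higher and 1186 lower same-way genes.

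**Figure D1:**
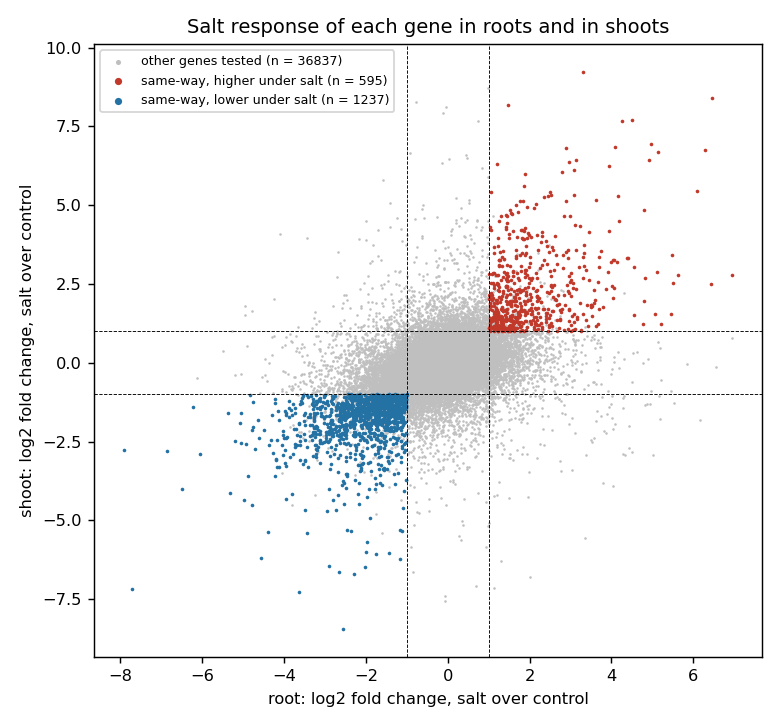
Log2 fold change of each tested gene in shoots (vertical axis) against roots (horizontal axis), salt over control; red points are the 595 same-way genes higher under salt, blue points the 1237 lower under salt, grey points all other tested genes, and dashed lines mark a change of 1. Same-way genes lie in the upper right and lower left corners, and the grey cloud is centred near 0 in both organs.

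In the plot of shoot against root changes the organs are only loosely related. Over all tested genes the sign was the same in 64.4%, and the root and shoot changes had a Pearson correlation of 0.42 and a Spearman correlation of 0.40 across genes, which are not independent replicates. Among the same-way genes that rose, the median log2 fold change was 1.76 in roots and 1.95 in shoots, and 318 were larger in shoots against 277 in roots. Among those that fell, the medians were −1.91 in roots and −1.60 in shoots, and 427 were larger in shoots against 810 in roots. The salt and control libraries did not overlap in either organ for 1617 of the 1832 same-way genes (88.3%), against 14.4% of all tested genes (5.84% higher and 8.6% lower). Same-way genes were selected on these same libraries, so a larger share without overlap follows from that selection and is no separate evidence. A stricter requirement, that each organ by itself passed an adjusted p under 0.05 with a change of at least 1 in the same direction, was met by 1136 genes (2.94% of those tested), 417 higher and 719 lower, each of them a same-way gene. In 146 of the rising and 172 of the falling same-way genes, at least 1 organ met the minimum count through a single treatment alone, so that a difference was built into their selection. With a mean count of at least 50 required in each organ, 1159 same-way genes were left. Leaving out the second or the third control root library lowered the falling same-way genes to 793 and 814, and leaving out the first salt-treated shoot or the second control shoot library lowered the count called in each organ to 667 and 749.

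Most of the genes with the largest common change carried no description in the deposited tables. TraesCS4A02G316000 had the largest increase, with counts of 178, 245 and 50.7 in salt-treated roots against 0, 0.782 and 0.918 in control roots, and 580, 1250 and 888 in salt-treated shoots against 4.87, 1.91 and 0 in control shoots. Every salt library thus lay far above every control library, and the mean log2 fold change was 7.42 ± 0.48 (SE; adjusted p = 4.0e-06). Because the control roots were at or below a floor of 3 counts, the ratio in roots can be given only as at least 52.6-fold higher. TraesCS5A02G392100 was similar in both organs (6.30 in roots and 6.77 in shoots), with 6658, 3853 and 1754 counts in salt-treated roots against 43.7, 39.7 and 50 in control roots. The mirror case was TraesCS7B02G278500 on chromosome 7B (509573965 to 509577289, plus strand of the IWGSC annotation). It had 3.06, 0 and 0 counts in salt-treated roots against 277, 463 and 292 in control roots, and 3.70, 0 and 0 in salt-treated shoots against 203, 300 and 237 in control shoots. Its mean log2 fold change of −7.45 ± 0.46 (SE; adjusted p = 2.9e-06) was the largest decrease. No salt library exceeded 3.70 counts, so the size of this change depends on the pseudocount of 1. Other undescribed genes that fell in both organs were TraesCS3A02G509900 (−5.50), TraesCS3B02G578400 (−5.45), TraesCS6A02G023300 (−5.38) and TraesCS5A02G391500 (−5.34), and for TraesCS3B02G578400 carryover of RNA between the organs could make up at least 25% of the count in 1 organ.

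Descriptions were available for 3277 of the tested genes and for 337 (18.4%) of the same-way genes. They come from the authors' comparison tables, which list only genes that passed the authors' own thresholds in some comparison, so the described genes were themselves chosen on these libraries and their counts are no independent evidence of direction. Among them 10.3% were same-way, 3.39% higher and 6.9% lower, while 7.02% were called higher and 13.0% lower for the mean, and their median common change was −0.07. These shares are the background for each list below. Of 47 lists made from the descriptions, 12 (starch, fermentation, proline breakdown, JAZ, chalcone, CBF, clock, cytokinin, mitogen-activated kinases, RING ligases, DETOXIFICATION and sulfate with iron) were added after values had been seen.

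**Figure D2:**
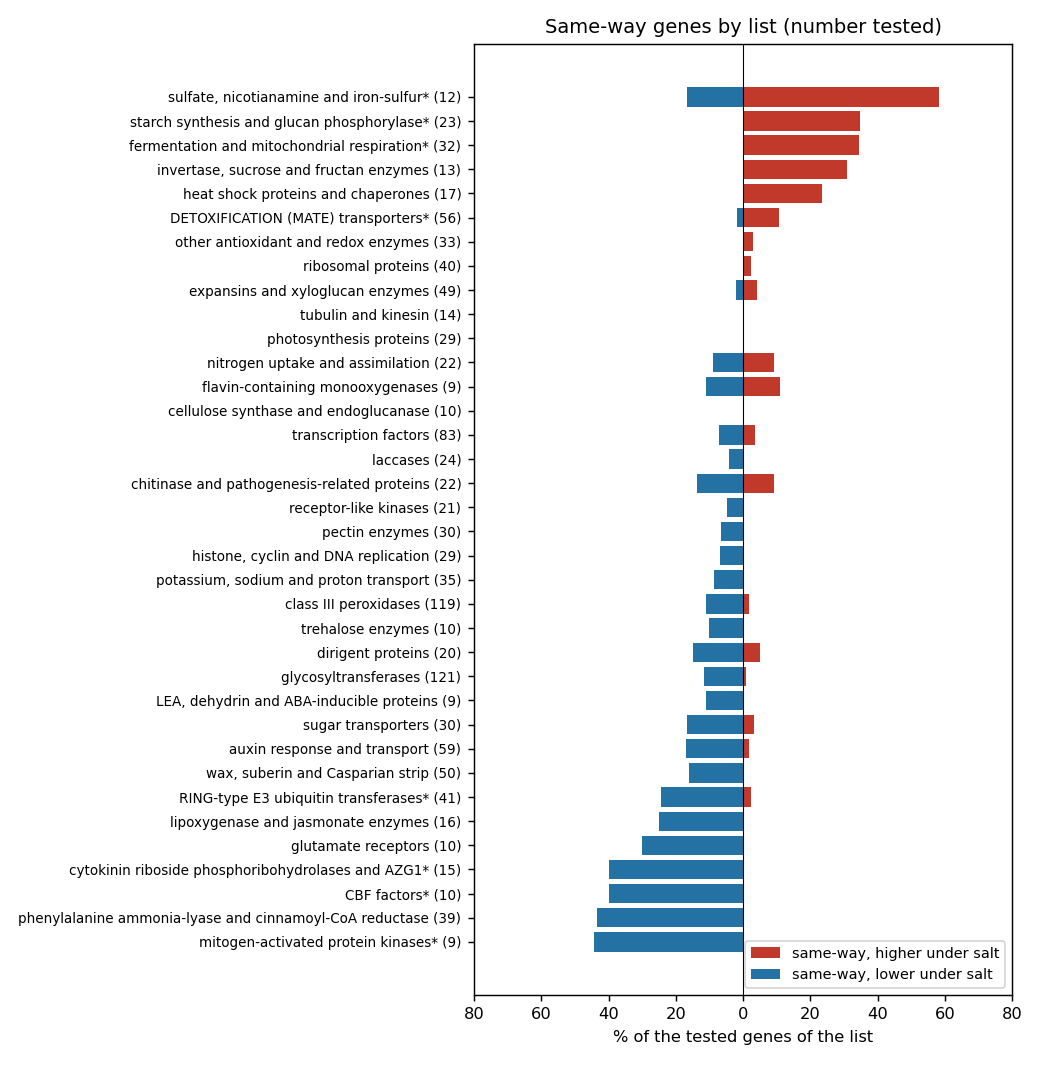
Share of the tested genes that were same-way in each list with 9 or more tested, with those lower under salt drawn to the left and those higher under salt to the right (horizontal axis, % of the list); the number tested is in parentheses and an asterisk marks lists added after values had been seen. Sulfate and iron, starch, fermentation, sucrose and heat shock lists extend to the right, and mitogen-activated kinase, phenylpropanoid, CBF, cytokinin and glutamate receptor lists to the left.

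Proline metabolism moved on both of its arms. Proline is a compatible solute, and in plants its synthesis from glutamate runs through delta-1-pyrroline-5-carboxylate synthase (P5CS) and pyrroline-5-carboxylate reductase, while proline dehydrogenase begins its breakdown in mitochondria. Of 4 tested P5CS genes 3 were same-way and higher under salt. TraesCS3A02G363700 (chromosome 3A, 611964689 to 611971232, plus strand) had 2936, 2010 and 2377 counts in salt-treated roots against 735, 508 and 400 in control roots. In shoots it had 8204, 6824 and 6135 counts under salt against 477, 486 and 310 in control plants. The groups were well separated in both organs, and the mean log2 fold change was 3.13 ± 0.17 (SE; adjusted p = 1.5e-06). Its counterpart TraesCS3B02G395900 (chromosome 3B, 623824481 to 623830911, plus strand) had 2755, 2157 and 1771 counts in salt-treated roots against 1016, 803 and 474 in control roots, and 8677, 6920 and 7368 in salt-treated shoots against 475, 578 and 259 in control shoots. It rose by 2.89 ± 0.23 (SE; adjusted p = 1.0e-05). The copy on 3D, TraesCS3D02G357200, was much lower in count but rose by 2.73 as a mean, with 64.2, 59.4 and 68.1 counts in salt-treated roots against 25.2, 21.0 and 20.6 in control roots. How far its reads were shared with the 3A and 3B copies was not tested, so it may not be a separate measurement. The remaining copy, TraesCS1B02G290600, had a mean log2 fold change of 0.99 ± 0.09, just under the fold threshold, and it passed that threshold under 5 of the alternative settings.

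The next step and the opposing step moved with it. Pyrroline-5-carboxylate reductase TraesCS3B02G538100 had 567, 474 and 421 counts in salt-treated roots against 230, 191 and 273 in control roots, and 800, 714 and 772 in salt-treated shoots against 192, 186 and 193 in control shoots, a mean log2 fold change of 1.54 ± 0.11 (SE; adjusted p = 6.9e-06). All 3 tested proline dehydrogenase genes fell. TraesCS1B02G223300 had 329, 552 and 395 counts in salt-treated roots against 4425, 4480 and 4351 in control roots, and 893, 1036 and 1032 in salt-treated shoots against 1716, 2423 and 2160 in control shoots. The control roots were tightly grouped and far above the salt-treated ones (ratio of means 0.096, salt over control), and the mean log2 fold change was −2.24 ± 0.13 (SE; adjusted p = 2.4e-06). TraesCS1A02G209100 (−2.17) and TraesCS1D02G212400 (−2.06) fell likewise, without overlap in either organ. Whether these proline dehydrogenase genes shared reads was not tested. The size of the change differed between organs in some of these genes. The difference, shoot minus root, was 1.89 (adjusted p = 0.0091) for TraesCS3A02G363700, 2.61 (adjusted p = 0.0062) for TraesCS3B02G395900 and 2.33 (adjusted p = 6.7e-04) for TraesCS1B02G223300 by limma with Benjamini-Hochberg adjustment, so the first pair rose more in shoots and the proline dehydrogenase fell more in roots. It did not pass for the P5CS genes TraesCS3D02G357200 (2.49, adjusted p = 0.050) and TraesCS1B02G290600 (0.79, adjusted p = 0.030), nor for the proline dehydrogenases TraesCS1A02G209100 (1.39, adjusted p = 0.096) and TraesCS1D02G212400 (1.35, adjusted p = 0.23).

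**Figure D3:**
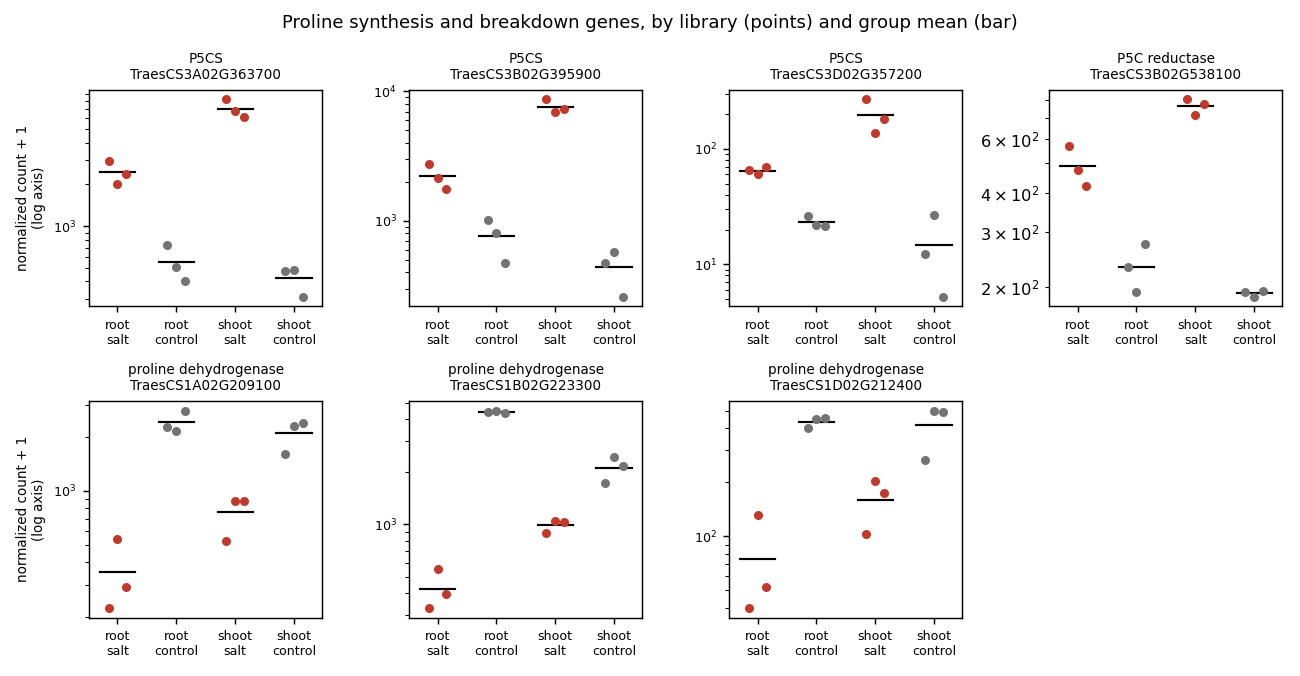
Normalized count + 1 (vertical axis, log scale) of 3 P5CS genes, 1 pyrroline-5-carboxylate reductase gene and 3 proline dehydrogenase genes in each library; red points are salt, grey points control, and bars are group means of 3 libraries. Synthesis genes are higher and breakdown genes lower under salt in both organs, with no overlap between salt and control points.

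Some genes of sucrose cleavage and starch metabolism were higher under salt in both organs. Sucrose synthase cleaves sucrose to UDP-glucose and fructose, and in the list of invertase, sucrose and fructan enzymes 4 of 13 tested genes were same-way and higher, all of them sucrose synthases, 0 were lower and 7 were not called. TraesCS4A02G140000 had 1336, 1142 and 753 counts in salt-treated roots against 322, 357 and 194 in control roots, and 2006, 2315 and 1983 in salt-treated shoots against 288, 321 and 270 in control shoots. Its mean log2 fold change was 2.37 ± 0.17 (SE; adjusted p = 6.8e-06). TraesCS7B02G063400 had 24128, 27402 and 10990 counts in salt-treated roots against 9150, 8375 and 5366 in control roots, and rose by 1.22 as a mean (adjusted p = 0.0022).

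In the list of starch synthesis and glucan phosphorylase 8 of 23 tested genes were same-way and higher and 0 were lower, 13 were called higher for the mean and 10 were not called. The starch synthase TraesCS7B02G093800, which extends glucan chains in plastids, had 54.7, 48.9 and 62.5 counts in salt-treated roots against 5.01, 3.86 and 1.90 in control roots, and 35.5, 45.0 and 37.1 in salt-treated shoots against 3.23, 7.56 and 7.56 in control shoots. The groups did not overlap, and it rose by 3.12 ± 0.27 (SE; adjusted p = 1.8e-05). TraesCS2A02G373600, another starch synthase, had most of its counts in shoots (1298, 1025 and 879 under salt against 221, 165 and 219 in controls) and rose by 1.92 as a mean. Glucose-1-phosphate adenylyltransferase, which makes ADP-glucose, the donor for starch, rose as TraesCS1A02G419600 (1.44) and TraesCS5D02G182600 (2.31). Glucan phosphorylase, which releases glucose-1-phosphate from glucan, rose as TraesCS5A02G395200 (1.49) and TraesCS3A02G366300 (1.59), so that both synthesis and breakdown genes were among those that rose.

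The list of fermentation and mitochondrial respiration had 11 same-way genes of 32 tested, all higher. Formate dehydrogenase TraesCS7B02G130600, a mitochondrial enzyme that oxidizes formate, had 1617, 987 and 924 counts in salt-treated roots against 280, 274 and 299 in control roots, and 2002, 2256 and 2493 in salt-treated shoots against 539, 621 and 546 in control shoots. It moved almost equally in the organs (2.00 in roots and 1.98 in shoots; adjusted p of the mean = 5.4e-06). The E1 alpha subunit of pyruvate dehydrogenase, TraesCS7A02G238900, had 729, 589 and 475 counts in salt-treated roots against 186, 223 and 141 in control roots and rose by 2.21 ± 0.15 as a mean (SE; adjusted p = 4.5e-06). Ubiquinol oxidase, the alternative oxidase of the respiratory chain, rose as TraesCS6A02G269100 (1.57), and succinate dehydrogenase rose as TraesCS2A02G255100 (1.94). Glutamate decarboxylase TraesCS4A02G075600, which makes gamma-aminobutyric acid, rose by 2.03, and an alanine aminotransferase, TraesCS5B02G214700, by 2.67. Alcohol dehydrogenase TraesCS4D02G103000 had 576, 576 and 100 counts in salt-treated roots against 73.2, 74.4 and 64.8 in control roots, so the third salt-treated root library was much lower than the other two. Its mean log2 fold change of 1.77 (adjusted p = 0.0053) lost its call on leaving out any of 9 of the 12 libraries, with adjusted p up to 0.016.

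**Figure D4:**
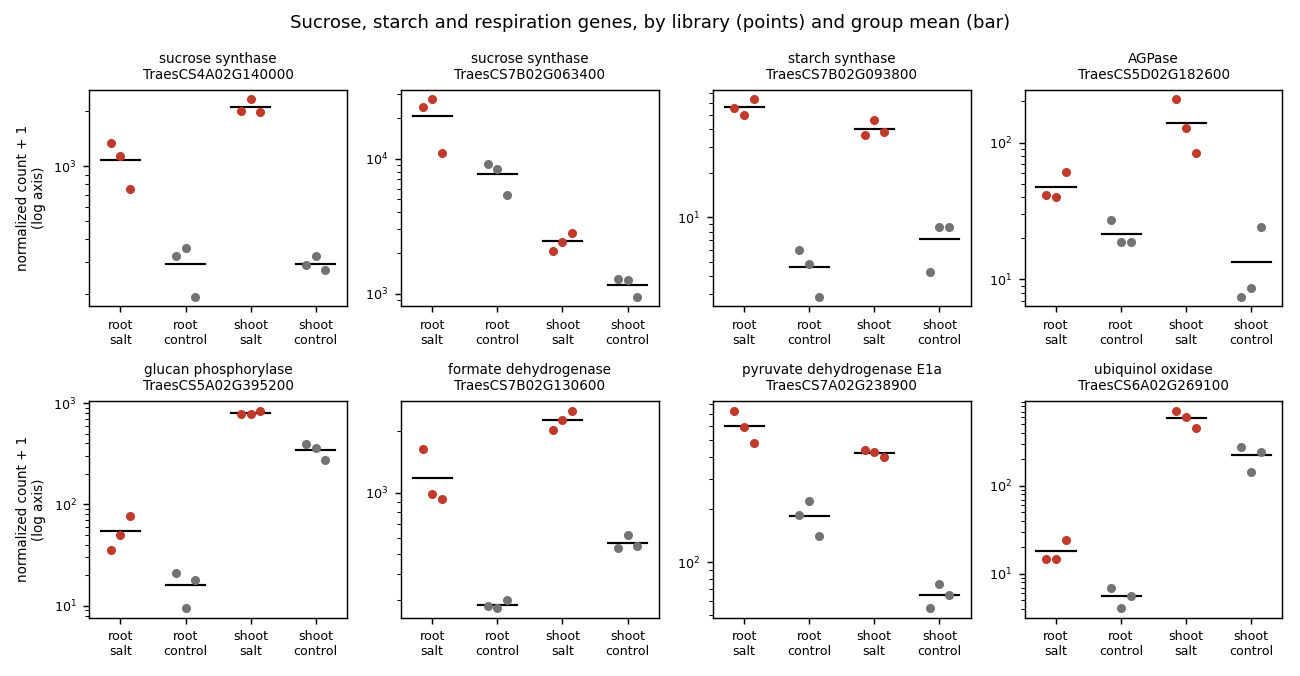
Normalized count + 1 (vertical axis, log scale) of 8 genes of sucrose, starch and respiratory metabolism in each library; red points are salt, grey points control, and bars are group means of 3 libraries. In each panel the salt points lie above the control points of the same organ, also where the level in roots and shoots differs widely, as in ubiquinol oxidase and glucan phosphorylase.

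Of 12 tested genes of sulfate, nicotianamine and iron-sulfur assembly 7 were same-way and higher under salt and 2 were lower. The sulfate transporter TraesCS3B02G323500 had 268, 347 and 416 counts in salt-treated roots against 64.9, 26.1 and 10.4 in control roots, and 408, 679 and 377 in salt-treated shoots against 23.1, 11.3 and 6.48 in control shoots, a mean log2 fold change of 4.40 ± 0.40 (SE; adjusted p = 2.4e-05). The iron-sulfur cluster assembly gene TraesCS1B02G436500 had 717, 789 and 1112 counts in salt-treated shoots against 0, 1.90 and 0 in control shoots, at least 291-fold higher, and 600, 608 and 156 in salt-treated roots against 70.6, 66.2 and 11.1 in control roots. For TraesCS1B02G436500 carried-over root RNA could make up at least 25% of the count in control shoots. Its 1A counterpart TraesCS1A02G406300 rose by 2.95. Nicotianamine synthase, which makes a metal chelator, rose as TraesCS4B02G183900 (2.00) and TraesCS2A02G095700 (1.33). The genes that fell were both adenylyl-sulfate kinases, enzymes that form activated sulfate: TraesCS4A02G045900 had 182, 187 and 176 counts in salt-treated roots against 655, 717 and 832 in control roots and 132, 141 and 181 in salt-treated shoots against 489, 415 and 453 in control shoots (−1.79 ± 0.11, SE; adjusted p = 2.8e-06).

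Among transporters of the DETOXIFICATION (MATE) family, which export organic acids and secondary metabolites, 6 of 56 tested genes were same-way and higher and 1 lower. TraesCS4B02G244400 varied little within groups, with 918, 787 and 714 counts in salt-treated roots against 62.1, 65.3 and 66.4 in control roots, and 107, 97.1 and 120 in salt-treated shoots against 53.7, 43.7 and 45.7 in control shoots. Its increase of 2.39 ± 0.12 as a mean (SE; adjusted p = 9.4e-07) was larger in roots. In nitrogen assimilation, glutamine synthetase genes moved in both directions: TraesCS4B02G240900 (1.67) and TraesCS4A02G063800 (1.63) rose, while TraesCS6A02G298100 fell (−1.21). In this last gene the salt-treated roots had 4400, 4450 and 7262 counts against 9819, 10532 and 11458 in control roots, and salt-treated shoots 3599, 4566 and 3974 against 12044, 10564 and 9294 in control shoots.

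Of 17 tested genes of the heat shock list 4 were same-way and higher, a small heat shock protein, an Hsp90 and a pair of heat stress transcription factors (Spl7), and 12 were not called. The small heat shock protein Hsp23.6, TraesCS7A02G177500, had 145, 401 and 83.9 counts in salt-treated roots against 13.4, 19.5 and 30.6 in control roots, and 428, 474 and 335 in salt-treated shoots against 74.8, 51.4 and 74.2 in control shoots, and rose by 2.82 ± 0.33 (SE; adjusted p = 1.4e-04). Outside this list, HSA32 (TraesCS7A02G451100), a heat-induced protein known from Arabidopsis for keeping acquired thermotolerance, rose by 4.73 ± 0.39 (SE; adjusted p = 1.4e-05), with 169, 289 and 72.5 counts in salt-treated roots against 7.56, 7.78 and 7.45 in control roots. The second salt-treated root library was the highest in these genes, and it stood furthest apart in the heat stress factor TraesCS2B02G419600, with counts of 31.4, 253 and 8.73 under salt against 15.1, 8.56 and 9.31 in control roots, so that its groups overlapped in roots. The groups of the other Spl7 gene, TraesCS2A02G401600 (3.02), also overlapped in roots, and it kept its call in 10 of 18 alternatives, with adjusted p up to 0.017. The Hsp90 gene TraesCS7B02G149200 lay close to the threshold (1.37, adjusted p = 0.0084) and lost its call on leaving out any of 9 of the 12 libraries, with adjusted p up to 0.022. A further Hsp90 gene, TraesCS2A02G033700, was not tested, since only 2 root libraries (10.7 and 496 counts, both salt-treated) reached the minimum.

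Defence-related genes rose and fell. The dirigent protein TraesCS4A02G431400 (chromosome 4A, 702070205 to 702073215, plus strand), of a family that guides the coupling of lignan precursors, had 461, 445 and 278 counts in salt-treated roots against 10.9, 19.4 and 6.52 in control roots, and 241, 387 and 559 in salt-treated shoots against 3.25, 5.71 and 0 in control shoots. It rose by 5.96 ± 0.44 (SE; adjusted p = 6.8e-06), whereas 3 other dirigent genes of the 20 tested were same-way and lower. Wheatwin-1, a pathogenesis-related protein (TraesCS3A02G517100), had 1633, 1047 and 7053 counts in salt-treated roots against 59.8, 11.7 and 7.36 in control roots, and 1320, 409 and 1542 in salt-treated shoots against 171, 109 and 137 in control shoots, a mean change of 4.86. In the same list of chitinases and pathogenesis-related proteins 2 of 22 tested genes were same-way and higher, 3 were lower and 4 were called with opposite signs. The flavin-containing monooxygenase TraesCS5A02G348400 had 63.5, 40.8 and 40.1 counts in salt-treated roots against 0.839, 2.33 and 0.933 in control roots, at least 16.0-fold higher, and rose by 3.86 as a mean (adjusted p = 1.3e-04).

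All 6 tested photoperiod and clock genes with a description were same-way. The GIGANTEA orthologues, components of the circadian clock and of flowering in Arabidopsis, all rose. TraesCS3A02G116300 had 2075, 1944 and 1947 counts in salt-treated roots against 666, 655 and 385 in control roots, and 1279, 1310 and 1251 in salt-treated shoots against 306, 273 and 207 in control shoots, a mean log2 fold change of 2.08 ± 0.15 (SE; adjusted p = 5.7e-06). TraesCS3B02G135400 rose by 2.03 and FKF1 (TraesCS4A02G164000) by 2.10, while the CONSTANS-like gene TraesCS6A02G286400 fell by 1.53. All plants were harvested at midday, and other times of day were not sampled.

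Phenylalanine ammonia-lyase (PAL) commits phenylalanine to lignin, flavonoids and other phenolics, and 4-coumarate:CoA ligase and cinnamoyl-CoA reductase act further along. Of 39 tested genes of these enzymes 17 were same-way and lower and 0 higher, 21 were called lower, and the list's median was −1.34 against −0.07 for all described genes. With libraries scaled to equal totals, 10 of 40 were same-way and lower, beside 12 of 121 glycosyltransferases and 11 of 120 class III peroxidases. The PAL gene TraesCS1B02G048200 had 125, 833 and 930 counts in salt-treated roots against 1623, 2461 and 2137 in control roots, and 1.23, 1.23 and 1.07 in salt-treated shoots against 29.3, 29.5 and 12.7 in control shoots. It fell by 2.79 ± 0.44 (SE; adjusted p = 8.8e-04). However, root RNA carried over at the level estimated below could make up all of its mean shoot count in each treatment. Its shoot counts may therefore not be a separate measurement of a fall in shoots. The ratio of means, salt over control, was 0.30 in roots and 0.049 in shoots. How much of the shoot count came from roots was not tested. The cinnamoyl-CoA reductase-like TraesCS3A02G229700 had 149, 202 and 275 counts in salt-treated roots against 432, 574 and 636 in control roots, and 113, 175 and 97.2 in salt-treated shoots against 455, 488 and 633 in control shoots (−1.73, adjusted p = 8.5e-05). In the branch to flavonoids, the chalcone synthase TraesCS2B02G038700 fell by 2.44 ± 0.27 (SE; adjusted p = 8.1e-05), with 112, 145 and 128 counts in salt-treated shoots against 909, 850 and 904 in control shoots, and the chalcone isomerase TraesCS5A02G475600 fell by 1.52.

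**Figure D5:**
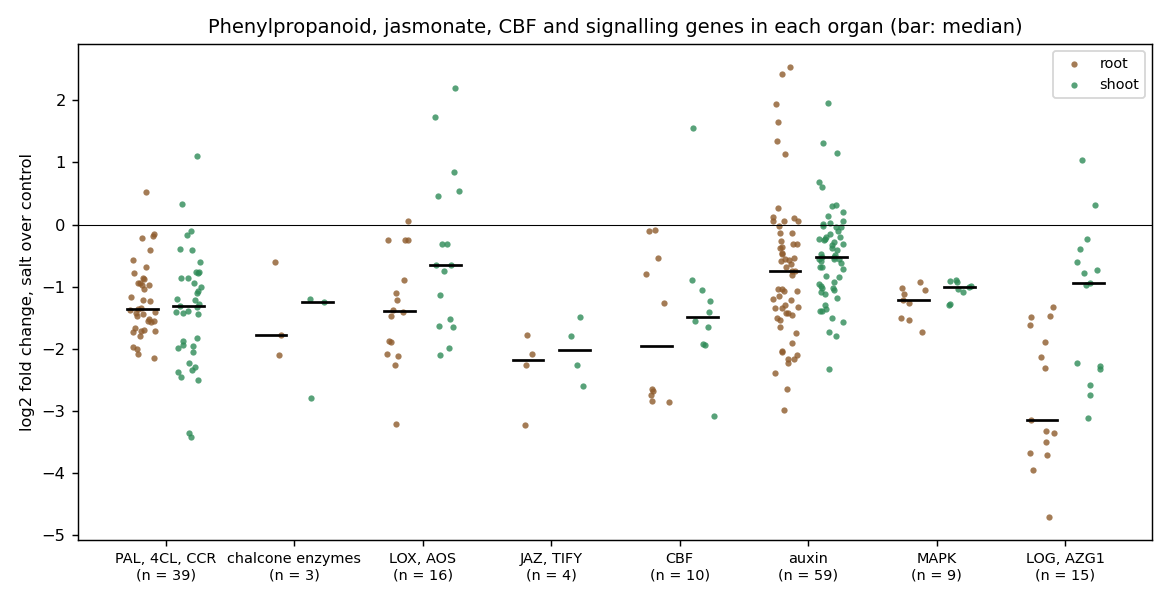
Log2 fold change, salt over control (vertical axis), of each tested gene of 8 lists in roots (brown) and shoots (green); bars are medians and n is the number of genes tested. PAL, JAZ and mitogen-activated protein kinase genes lie below 0 in nearly every case in both organs, whereas lipoxygenase and auxin genes spread more widely, with several genes above 0.

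Jasmonate is a stress and wound hormone made through lipoxygenase and allene oxide synthase, and JAZ proteins of the TIFY family repress its response and are themselves jasmonate-induced. Of 16 lipoxygenase and jasmonate enzymes 4 were same-way and lower, 0 were higher and 11 were not called, and all 4 tested JAZ and TIFY genes were same-way and lower, with a median of −2.11. The lipoxygenase TraesCS2B02G333600 had 585, 1800 and 1344 counts in salt-treated roots against 3147, 5285 and 4301 in control roots, and 266, 1010 and 647 in salt-treated shoots against 1311, 3410 and 2417 in control shoots. The groups did not overlap although the libraries of a group spread widely, and the mean log2 fold change was −1.93 ± 0.37 (SE; adjusted p = 0.0026). Allene oxide synthase TraesCS5B02G408000 fell by 1.53 and the JAZ gene TraesCS5A02G212800 by 1.79, whose salt and control libraries overlapped in shoots. The JAZ gene TraesCS5B02G211000 (−1.78, adjusted p = 0.0035) and the TIFY gene TraesCS4B02G296900 (−2.44, adjusted p = 0.0042) were also lower, but each lost its call without some single libraries, TraesCS5B02G211000 without the second control root, the third salt-treated shoot or the second control shoot library (adjusted p up to 0.011), and TraesCS4B02G296900 without 6 of the 12 (up to 0.013).

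Of 10 tested CBF factors, AP2-domain activators of cold-response genes, 4 were same-way and lower, 2 in the scaled libraries, and 0 passed in each organ by itself. TraesCS4A02G433200 and TraesCS5B02G312800 kept their call in 10 of 21 alternatives each, with adjusted p up to 0.018 and 0.019. The AP2-domain gene TraesCS7A02G057700 had 69.7, 607 and 231 counts in salt-treated roots against 1247, 1665 and 1806 in control roots, and 177, 556 and 429 in salt-treated shoots against 920, 1089 and 1073 in control shoots (−2.20, adjusted p = 0.0033), and its adjusted p reached 0.010 without the second or the third control root library. In this gene, as in the PAL, lipoxygenase and cinnamoyl-CoA reductase genes given above, the first salt-treated root library was the lowest of its group. The ethylene-responsive factors TraesCS1A02G411100 (−2.66) and TraesCS1B02G441300 (−2.34) fell in both organs, and among all 83 tested transcription factors 6 were same-way and lower and 3 higher, a balance that became 5 lower and 5 higher in the scaled libraries. All 9 tested mitogen-activated protein kinase genes, members of a cascade that passes on stress signals, were called lower, 4 of them same-way. TraesCS3B02G270200 had 367, 373 and 457 counts in salt-treated roots against 1200, 963 and 676 in control roots, and 447, 562 and 448 in salt-treated shoots against 1561, 1164 and 908 in control shoots (−1.25 ± 0.17, SE; adjusted p = 3.0e-04). Their changes were small and even, between −1.36 and −1 as a mean, so that with libraries scaled to equal totals only 2 of the 9 were still same-way. Of 41 RING-type E3 ubiquitin transferases 10 were same-way and lower and 1 higher (6 and 2 in the scaled libraries), with TraesCS6A02G382800 at −3.17. Of 10 tested glutamate receptors, cation channels of the plasma membrane, 3 were same-way and lower: TraesCS5B02G217500 had 39.7, 93.7 and 57.6 counts in salt-treated roots against 149, 265 and 197 in control roots, and 48.0, 46.7 and 91.8 in salt-treated shoots against 415, 548 and 358 in control shoots (−2.28 ± 0.25, SE; adjusted p = 7.9e-05).

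Genes of cytokinin and auxin were among those that fell. Cytokinin riboside 5′-monophosphate phosphoribohydrolases release active cytokinin, and with the AZG1 purine transporters 13 of 15 tested genes were called lower, 6 of them same-way. The median was −3.14 in roots and −0.93 in shoots. TraesCS1D02G444500 had 1.53, 12.0 and 5.24 counts in salt-treated roots against 31.1, 94.1 and 95.9 in control roots, and 0, 2.46 and 3.21 in salt-treated shoots against 14.6, 24.7 and 22.3 in control shoots (−3.30, adjusted p = 6.8e-04). AZG1 fell as TraesCS1A02G059200 (−2.23) and TraesCS1B02G077600 (−2.06). Of 59 genes of auxin response and transport 10 were same-way and lower and 1 higher, and the scaled libraries gave 6 lower and 1 higher. The auxin-responsive gene TraesCS3A02G276500 had 57.4, 76.0 and 59.4 counts in salt-treated roots against 268, 312 and 290 in control roots, and 257, 517 and 266 in salt-treated shoots against 997, 1112 and 832 in control shoots (−1.87 ± 0.17, SE; adjusted p = 3.0e-05).

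In the wax, suberin and Casparian strip list 8 of 50 tested genes were same-way and lower and 0 higher, 7 of them 3-ketoacyl-CoA synthases, which elongate fatty acids for waxes and suberin. TraesCS4B02G225500 had 102, 111 and 143 counts in salt-treated roots against 295, 411 and 343 in control roots, and 351, 504 and 402 in salt-treated shoots against 1426, 1598 and 1289 in control shoots (−1.67 ± 0.13, SE; adjusted p = 1.2e-05). Of 119 tested class III peroxidases, secreted enzymes that act on phenolics and hydrogen peroxide, 13 were same-way and lower, 2 were higher and 84 were not called. TraesCS1A02G342000 had 66.6, 161 and 295 counts in salt-treated roots against 781, 1203 and 1418 in control roots, and 0, 0 and 1.07 in salt-treated shoots against 122, 140 and 78.5 in control shoots, at least 37.8-fold lower in shoots, and carried-over root RNA could make up at least 25% of the count in salt-treated shoots. The laccase TraesCS3B02G397300 (−2.55), the sole same-way member of 24 tested laccases, of which 3 were called higher for the mean, and the pectin acetylesterase TraesCS3A02G533300 (−2.53) fell in both organs, while the xyloglucan endotransglucosylase TraesCS7B02G327400, which remodels the wall, rose by 2.10 ± 0.14 (SE; adjusted p = 5.4e-06). Glycosyltransferases were same-way and lower in 14 of 121 cases and higher in 1.

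Transport of sugar and ions was mixed. Of 30 tested sugar transporters 5 were same-way and lower and 1 higher, all bidirectional SWEET transporters. The exception, TraesCS4A02G122100, had 1661, 1220 and 803 counts in salt-treated roots against 88.2, 63.8 and 51.2 in control roots, and 12.3, 11.1 and 56.6 in salt-treated shoots against 0, 2.85 and 2.12 in control shoots (3.66, adjusted p = 1.5e-04). Its shoot counts were so low that RNA carried over from roots could make up at least 25% of them. The SWEET gene TraesCS6A02G009000 fell by 1.46, with 20.9, 32.0 and 21.4 counts in salt-treated shoots against 94.3, 66.6 and 74.3 in control shoots. Of 35 genes of potassium, sodium and proton transport 3 were same-way and lower and 0 higher, among them the potassium channel AKT2/3 (TraesCS1A02G267900), with 78.8, 105 and 92.5 counts in salt-treated roots against 225, 268 and 202 in control roots, and 206, 309 and 173 in salt-treated shoots against 607, 619 and 678 in control shoots (−1.41 ± 0.15, SE; adjusted p = 6.7e-05).

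Several lists held few or no same-way genes, beside a background share of 10.3%, and whether they differ from that share was not tested. Of 9 tested LEA, dehydrin and ABA-inducible genes, which protect dehydrating cells, 0 were same-way and higher and 1 was lower, turning to 1 higher and 0 lower in the scaled libraries. The dehydrin WZY2 (TraesCS6A02G350700) had 1205, 1398 and 1448 counts in salt-treated shoots against 3.25, 6.66 and 0 in control shoots, but 349, 300 and 329 in salt-treated roots against 213, 183 and 114 in control roots. Its log2 fold change was 8.72 in shoots and 0.98 in roots, just short of the same-way limit, and the difference of 7.74, shoot minus root, passed the test (adjusted p = 3.2e-04). The ABA-inducible gene Wrab18 (TraesCS1B02G381500) moved in opposite directions, with 215, 166 and 154 counts in salt-treated roots against 502, 464 and 253 in control roots, and 29.5, 35.7 and 32.1 in salt-treated shoots against 1.63, 0 and 1.06 in control shoots. Same-way genes numbered 0 among 5 aquaporins, 3 protein phosphatases 2C, 10 cellulose synthase and endoglucanase genes, 14 tubulin and kinesin genes and 29 photosynthesis genes, and 1 among 40 ribosomal protein genes. In the photosynthesis list 4 genes were called lower for the mean, with a median of −1.11 in roots and −0.13 in shoots.

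The difference between the shoot and the root response passed an adjusted p under 0.01 with a size of at least 1 in 735 of all tested genes (1.9%), and 39 of these were same-way genes, 19 with the larger change in shoots and 20 in roots, a share of same-way genes close to that of all tested genes. Among the named same-way genes that passed, the largest difference was that of the iron-sulfur gene TraesCS1B02G436500 (5.92, shoot minus root, adjusted p = 0.0057), and in the other direction that of the undescribed TraesCS3A02G509900 (−5.88, adjusted p = 0.0036), which had 1.23, 0 and 0 counts in salt-treated shoots against 522, 405 and 440 in control shoots. The count of 735 was unstable: on leaving out 1 library at a time it ranged between 339 (without the second control root library) and 1066. It was 395 with a fixed replicate block and 1310 with root and shoot libraries of the same number paired. With 3 libraries per group, a gene that misses this test was not shown to respond equally. The median standard deviation within a group was 0.23 to 0.30 on the log2 scale.

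Same-way genes lay on every chromosome. On A and B chromosomes 1.12% to 2.03% of the tested genes were higher and 2.65% to 3.98% were lower in both organs, and on D chromosomes 0.25% to 1.46% and 2.03% to 2.77%. By subgenome they numbered 864 on A, 843 on B and 112 on D. Some neighbouring genes moved together: with a step of at most 200 in the gene number, 22 runs of at least 3 same-way genes of 1 direction were found, 20 of them lower and 2 higher under salt. Falling genes made up 67.5% of all same-way genes. How many runs would arise if same-way genes were placed without regard to position was not tested. The longest runs held 4 genes. A run on chromosome 1B comprised 4 PAL genes, TraesCS1B02G048100 (28305997 to 28308847, minus strand), TraesCS1B02G048200, TraesCS1B02G048400 and TraesCS1B02G048500 (28483566 to 28486349, plus strand), with mean log2 fold changes of −2.24, −2.79, −1.21 and −2.47. In TraesCS1B02G048100 the counts were 283, 1922 and 1749 in salt-treated roots against 3202, 5006 and 3600 in control roots. How far reads were shared among these copies was not tested. Apart from TraesCS1B02G048200 they passed narrowly (adjusted p = 0.0070 to 0.0082) and lost their call in 10 or more alternatives. Carried-over root RNA could make up at least 25% of the shoot counts in TraesCS1B02G048100. In TraesCS1B02G048500 it could make up at least 25% in control shoots and all of the mean count in salt-treated shoots. In TraesCS1B02G048200 it could make up all of the mean shoot count in each treatment, as given above. Another run on 5B held CBFIIIc-3.1 (TraesCS5B02G312700, −2.20), CBFIIIc-B10 (TraesCS5B02G312800, −2.38, with its call lost in part of the alternatives as given above) and an undescribed neighbour.

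The share of RNA that could pass between organs during dissection was estimated from the organ markers as 0.0476% to 0.192% of shoot RNA in root libraries and 0.925% to 1.65% of root RNA in shoot libraries. The estimate for shoot libraries used only class III peroxidases chosen for a shoot mean far below the root mean, not the CASP-like genes. That choice limits the estimate from above, and peroxidase RNA made in shoots counts as carried over. The SWEET gene TraesCS6A02G009100 had 648, 822 and 586 counts in salt-treated roots but 0, 1.23 and 0 in salt-treated shoots. That is fewer than the estimated shares of its root counts would give. The shares for shoot libraries may therefore be too high, and the true share was not tested. In 89 same-way genes (31 higher and 58 lower) a share of the estimated size could make up at least 25% of the count of 1 organ in at least 1 treatment, as also in WZY2 and Wrab18 outside the same-way genes. Without them 1743 same-way genes were left, 564 higher and 1179 lower, a count taken after the data had been seen. Whether fewer cells of a type or less RNA per cell lay behind a lower count cannot be told apart in these whole-organ libraries.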

How the data were processed

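RNA was measured by non-directional poly(A) RNA-seq. Per the labels and the study's methods the authors used FastQC 11.8, Trimmomatic 0.36 and Salmon 0.12.0 against the wheat IWGSC transcripts (versions from the submitters' processing notes), then tximport and DESeq2. The deposited table holds normalized counts, a signal that the authors made by dividing estimated counts by factors that differ between genes, so the values are not whole reads and carry no counting interval. The authors' comparison tables hold their fold changes and p-values, which were not used; only position and description were read, and 0 columns of per-sample values were left unused.

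Groups came from the labels. With Python 3.11.15 (pandas 2.3.3, matplotlib 3.10.9) genes that reached a count of 10 in 3 or more root libraries and 3 or more shoot libraries were kept, and log2(count + 1) was fitted in R 4.3.3 with limma 3.58.1 (1 coefficient per group, variance trend, Benjamini-Hochberg adjustment). Fold changes on this scale understate the change of low genes. In simulated data, 87.0% of 200 genes changed by 1.5 and 91.5% of 200 changed by 2 (log2, both organs) were recovered. The changed genes were drawn only from those of higher mean count, and the noise was independent between libraries. These shares therefore do not cover low genes or root and shoot libraries that vary together. The gene members and lists were chosen with earlier results of these data known.

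Named genes were the 5 largest increases and decreases among same-way genes, the 10 largest of each with a description, both without overlap of groups, up to 3 genes of each list by adjusted p, the study's 8 RT-qPCR genes and 3 with opposite signs. Another 20 genes were chosen after their values were seen, among them alcohol dehydrogenase, ubiquinol oxidase, glutamate decarboxylase, alanine aminotransferase, FKF1, HSP90, dehydrin WZY2, TraesCS5A02G395200, TraesCS5D02G182600, TraesCS1A02G406300, nicotianamine synthase, TraesCS1B02G290600, TraesCS1D02G212400 and the chromosome 1B PAL neighbours, as were TraesCS2A02G033700 and the runs of neighbours. Alternatives were other thresholds, pseudocounts, filters and scalings, a replicate block, no variance trend and leaving out each library. No gene identifier matched the reference tables given, and no sequence was used.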

Additional observations from a re-analysis of the deposited data

Results flagged for a closer look

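For 17 of the named genes the shoot and root responses differed by the test of the difference itself (limma, adjusted p under 0.01 over all tested genes, size of at least 1), each value being shoot minus root on the log2 scale. Among genes that moved the same way, the change was more positive in shoots for the iron-sulfur gene TraesCS1B02G436500 (5.92), the P5CS genes TraesCS3A02G363700 (1.89) and TraesCS3B02G395900 (2.61), and for TraesCS7A02G353400 (2.65, a peroxidase) and TraesCS1B02G223300 (2.33, a proline dehydrogenase), both of which fell less in shoots than in roots. It was more negative in shoots for the undescribed TraesCS3A02G509900 (−5.88) and the peroxidase TraesCS1B02G354900 (−3.71), which fell more in shoots, and for the xyloglucan enzyme TraesCS7B02G327400 (−2.03) and the DETOXIFICATION transporter TraesCS4B02G244400 (−2.45), which rose more in roots.

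Genes that moved in opposite directions, or in little more than 1 organ, were Wrab18 TraesCS1B02G381500 (5.39), TraesCS5B02G442000 (4.88), TraesCS5A02G120000 (3.30) and the glycosyltransferase TraesCS5B02G398500 (−3.86). The same held for the dehydrin WZY2 TraesCS6A02G350700 (7.74), the cold-regulated TraesCS1D02G296500 (4.13) and the SWEET transporter TraesCS7B02G050500 (3.72), with the change in shoots, and for the chitinase TraesCS3B02G293200 (−6.69), with the change in roots.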

How the results depend on the processing

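No named gene reversed its direction under any alternative run in which it was fitted. Of 143 named genes 142 were called, 114 of them under every alternative that fitted them. Many genes were missing from some alternatives: a mean count of at least 50 left 104 of the named genes. The largest increase (TraesCS4A02G316000) and the largest decrease (TraesCS7B02G278500) were each fitted in 15 alternatives. Without a fold threshold the counts became 5667 genes for the mean, 5424 same-way genes (1980 higher, 3444 lower) and 1966 called in both organs. A mean count of at least 50 left 2072 genes for the mean and 1159 same-way genes (332 higher), and no filter on low counts gave 896 higher same-way genes. An adjusted p under 0.05 raised the genes that differed between organs to 2029.

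Leaving out each library in turn gave 2233 to 3473 genes for the mean, 1265 to 1881 same-way genes (434 to 624 higher, 793 to 1434 lower), 667 to 1263 called in both organs and 339 to 1066 that differed between organs. The lower same-way count fell furthest without the second (793) or the third (814) control root library, and the count called in both organs without the first salt-treated shoot (667) or second control shoot (749) library. RNA integrity in the paper's supplement varied between libraries, and some values lay below the minimum given in its methods. The paper also describes a salt-treated root sample as an outlier in its principal component analysis. The cause of the dependence on single libraries was not tested.

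The replicate numbers are shared between organs and treatments, but no label says what a number marks, and the deviations of same-numbered root and shoot libraries correlated at 0.0827 to 0.389, each library best with its own number (6 of 6). With a fixed replicate block 1836 genes were same-way (559 higher, 1277 lower) and 395 differed between organs. With root and shoot paired in the block 2753 genes were called for the mean, against 3271 in the main fit. The same-way count was then 1602 (539 higher, 1063 lower), and 1310 differed between organs.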

Other observations

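TraesCS6A02G009100, a bidirectional sugar transporter SWEET gene, missed the minimum in shoots and lay outside the common response. It had 648, 822 and 586 counts in salt-treated roots against 255, 240 and 434 in control roots, and 0, 1.23 and 0 in salt-treated shoots against 9.76, 7.61 and 17.0 in control shoots, so it was higher under salt in the one organ and listed at or near 0 in the other. It and the untested Hsp90 gene TraesCS2A02G033700, with 347, 745 and 170 counts in salt-treated shoots against 4.88, 0.951 and 2.12 in control shoots, show what the minimum in each organ left out.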
